A study of Homo sapiens with 6 samples.

Results

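The genes described here are PARD3 and 9 other genes of cell polarity, namely PARD3B, PARD6B, PARD6G, PRKCI, PRKCZ, SCRIB, DLG1, MAGI1 and MAGI3. They were taken by name as the genes given alone for an intronic cluster in either of 2 deposited lists, out of 11805 genes so named. All 10 were present in both lists. They held 2042 of the 366429 clusters of the wild-type list (0.557%) and 905 of the 188027 of the F125A list (0.481%). A cluster is a place in an intron of a protein-coding gene that was covered by sequenced RNA.

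The RNA was what remained protected from nuclease in complexes of FLAG-tagged Rbfox1 with LASR, a large assembly of splicing regulators. All groups were made from 1 line, HEK293 Flp-In Rbfox2 KO#7. HEK293 derives from human embryonic kidney, Flp-In cells carry a fixed site for a transgene, and Rbfox2 was knocked out in every group. The Rbfox1 groups carried a transgene for either FLAG-Rbfox1(WT) or FLAG-Rbfox1(F125A). There were 3 libraries with WT, 2 with F125A and 1 from cells without a transgene, and the last was not analysed here. Rbfox1 is an RNA-binding splicing regulator, and F125A replaces a phenylalanine in its RNA recognition motif. Each Rbfox1 group is represented by 1 list without read counts, so read depth is unknown. No value has a replicate error and no test between the proteins was possible. Intervals cover counting error only and treat clusters as independent. The WT list rests on more libraries and held 1.95 clusters for each F125A cluster, so counts are read against that figure.

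Polarity proteins divide the cortex of a cell into domains, such as the apical and basolateral faces of an epithelial cell. In the PAR complex, the scaffolds PAR3 and PAR6 bring atypical protein kinase C to the apical side. The Scribble module of SCRIB, DLG and LGL proteins acts on the basolateral side, and both sets restrict each other. MAGI proteins are membrane-associated scaffolds with several PDZ domains, found at cell junctions. Clusters in introns show that intronic RNA of a gene was recovered. They give no expression level, and fewer transcripts cannot be told apart from less RNA bound per transcript.

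The number of clusters followed the length of the gene. Across the 10 genes, Spearman's rho between WT clusters and gene length was 0.98, a description over 10 genes that share the same list. PARD3 had the most, 698 WT and 313 F125A clusters, which placed it 10th and 13th among all genes of the lists. PARD6B had the fewest, 14 WT and 8 F125A clusters. Per length the order was different. SCRIB had 121 WT clusters per 100 kb of gene and PARD3 98.9, followed by MAGI3 with 86.0, DLG1 with 84.1, PARD6G with 64.2, PARD6B with 63.2, MAGI1 with 49.0, PRKCZ with 48.2, PRKCI with 34.7 and PARD3B with 31.7. PARD3 was denser than 96.4% of the 281 genes in its bin of gene length, DLG1 than 90.0% and MAGI3 than 89.0% of theirs. At the other end PARD6B was denser than 23.4% and PRKCI than 27.4% of genes of their lengths.

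**Figure D1:**
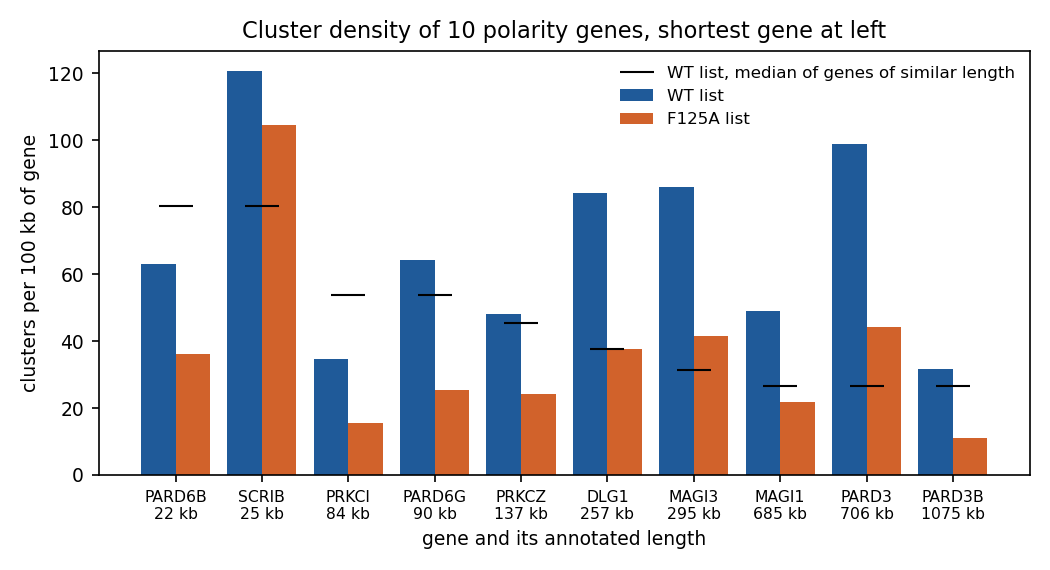
Clusters per 100 kb of gene for the 10 polarity genes, from the shortest at left to the longest at right. Bars give the WT and the F125A list, without error bars because each group has 1 list, and black dashes give the median WT density of genes of similar length. PARD3, MAGI3 and DLG1 stand far above their dashes, whereas PARD6B and PRKCI lie below theirs.

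PARD3 and PARD3B encode the PAR3 scaffolds, PDZ-domain proteins that anchor the PAR complex. PARD3 lies on the minus strand of chromosome 10 (34109561 to 34815296, GRCh38.p14) and spans 706 kb, and its clusters covered 45.7 kb of that strand with WT and 21.1 kb with F125A. Every one of its 71 windows of 10 kb held a WT cluster, and 59 also held an F125A cluster. No window was thus empty of clusters. The most WT clusters in a window, 29, lay 30 to 40 kb from the annotated start, where F125A had 14, and the most F125A clusters, 21, lay in the first 10 kb, where WT had 27. The first 100 kb held 191 WT and 95 F125A clusters, the next 20 kb only 13 and 2, and the stretch from 120 to 210 kb 187 and 105. These bounds were chosen after the profile was seen. The thinner stretch was seen in both lists.

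The last part of PARD3 was almost free of F125A clusters. The longest distance between neighbouring F125A clusters was 84.9 kb, from 617 to 702 kb after the start (chr10:34113545-34198402), and it contained 16 WT clusters. The longest distance between neighbouring WT clusters was 15.1 kb. WT clusters were also sparse there, and the last 10% of the gene held 12 WT clusters and 1 F125A cluster.

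PARD3B, the paralogue of PARD3, lies on the plus strand of chromosome 2 (204545475 to 205620162) and is the longest of the 10 at 1075 kb. It had 341 WT and 120 F125A clusters, a density of 31.7 and 11.2 per 100 kb. Its clusters were concentrated in the first part of the gene. The stretch from 140 to 340 kb held 196 WT and 70 F125A clusters, 57.5% and 58.3% of the gene's total, whereas everything beyond 340 kb held 68 and 18. These bounds, too, were set on the profile. Of its 108 windows, 35 held no cluster of either list, against 0 of 71 in PARD3. The longest distance between F125A neighbours, 133 kb, contained 10 WT clusters.

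Counts per 10 kb window rose and fell together in the 2 lists. Pearson's r between WT and F125A counts was 0.89 over the 71 windows of PARD3 (Spearman's rho 0.89) and 0.90 over the 108 windows of PARD3B (0.79). For MAGI1 it was 0.87 over 69 windows (0.78), for MAGI3 0.95 over 30 (0.89) and for DLG1 0.84 over 26 (0.72). Windows of a gene share its transcripts and are not independent, so these values are descriptions.

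**Figure D2:**
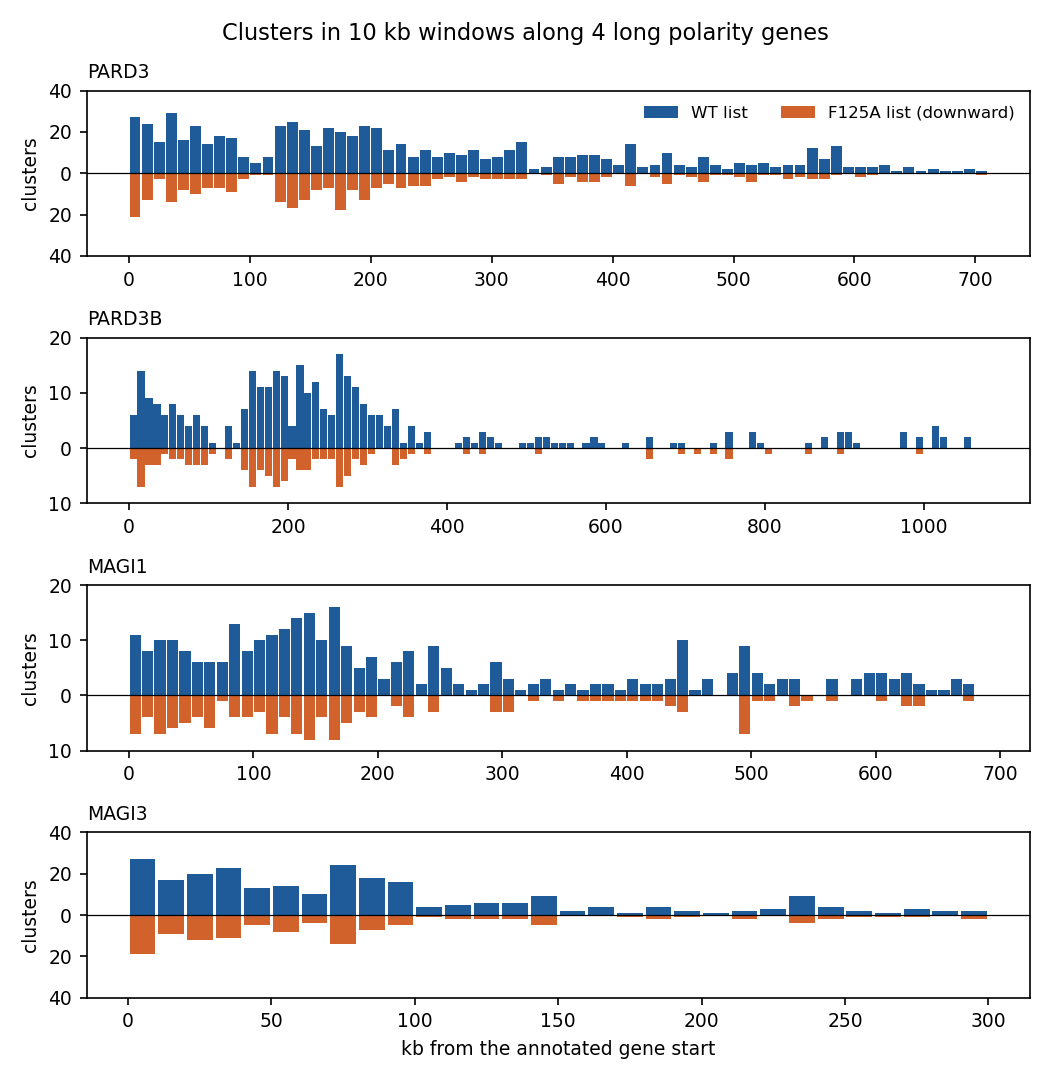
Clusters in 10 kb windows along PARD3, PARD3B, MAGI1 and MAGI3, with kb from the annotated gene start on the x axis and the number of clusters on the y axis, WT upward and F125A downward. All 4 genes are denser in their first part, PARD3B has its densest stretch from 140 to 340 kb, and MAGI3 drops after 100 kb.

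PARD6B and PARD6G encode PAR6 adaptors, which link PAR3 and the small GTPase CDC42 to atypical protein kinase C. PARD6B on chromosome 20 (50731580 to 50753741, plus strand, 22.2 kb) had 12 of its 14 WT clusters and all 8 F125A clusters within 10 kb of its start. The first WT and F125A clusters of PARD6B were centred 434 and 441 nt after the start. Of its 8 F125A clusters, 7 overlapped a WT cluster.

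PARD6G on chromosome 18 (80157232 to 80247514, minus strand, 90.3 kb) had 58 WT and 23 F125A clusters, and most were packed into 2 short stretches. The first, chr18:80185595-80186590, lay 60.9 to 61.9 kb after the start and spanned 996 nt. It held 15 WT clusters, none more than 50 nt from the next, which covered 99.3% of it, and 10 F125A clusters, which covered 89.6%. The second, chr18:80176789-80177960, lay 69.6 to 70.7 kb after the start and spanned 1172 nt. It held 17 WT clusters, which covered 96.8%, and 6 F125A clusters, which covered 32.3%. Both stretches were bounded as the largest such runs of WT clusters in the gene, so their filling in the WT list follows from that choice. F125A clusters nearly filled the first stretch and were patchy in the second.

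Such runs were rare in the WT list. Over all genes there were 15 runs of 17 or more WT clusters, in 13 genes, and 27 runs of 15 or more, in 24 genes. In PARD6G, 31 of 58 WT clusters (53.4%) touched a neighbour end to start, the 18th highest share among 4378 genes with at least 20 WT clusters, for which the median was 8.96%. Among the other 9 genes the share ranged from 0% in PARD6B to 20.0% in SCRIB. Merging clusters less than 50 nt apart left 24 WT and 12 F125A clusters in PARD6G. With these bounds from the WT list, the dense stretches held 32 WT and 16 F125A clusters, and the rest of PARD6G 26 and 7.

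**Figure D3:**
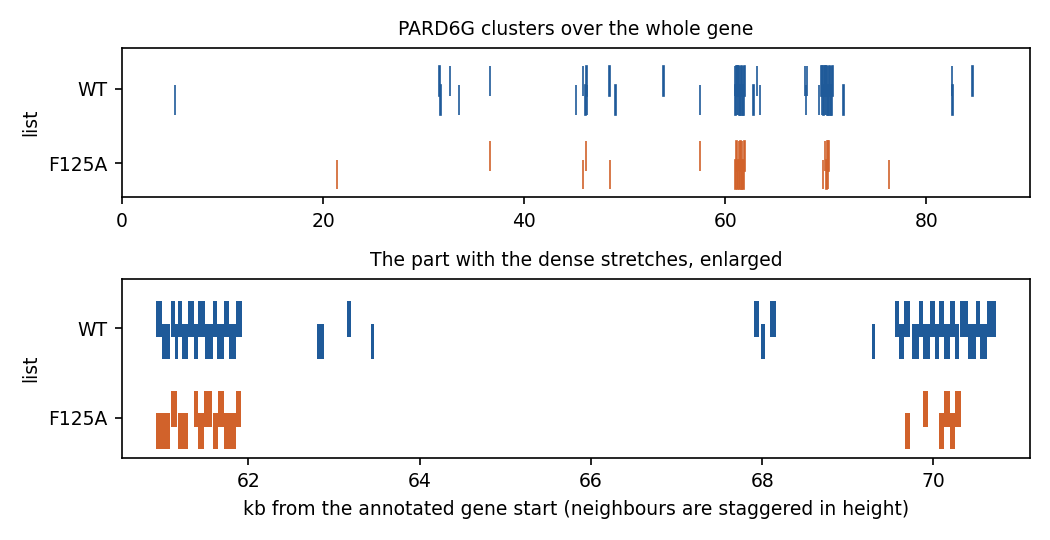
Clusters of PARD6G as boxes at their distance in kb from the annotated gene start, over the whole gene above and over the part from about 61 to 71 kb enlarged below, with WT in blue and F125A in orange. Both dense stretches were bounded on the WT list and are therefore filled there. In the F125A list the first is nearly filled and the second is patchy.

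PRKCI and PRKCZ encode the atypical protein kinases C, iota and zeta, the catalytic members of the PAR complex. PRKCI on chromosome 3 (170222424 to 170305977, plus strand, 83.6 kb) had 29 WT and 13 F125A clusters, and 12 of the 13 overlapped a WT cluster. They were spread over the gene, with 7 WT and 4 F125A clusters in the first 10 kb and none of its 9 windows empty of WT clusters. The WT and F125A clusters nearest to its start were centred 437 and 436 nt after it. PRKCZ on chromosome 1 (2048504 to 2185395, plus strand, 137 kb) had 66 and 33 clusters. The longest WT cluster of all 10 genes, 204 nt at chr1:2169592-2169795, lay in PRKCZ and overlapped 1 F125A cluster.

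The promoter annotation used here, which had entries for 7 of the 10 genes, gives 4 transcription starts for PRKCZ. It need not hold every start, and the first of the 4 lies 1.91 kb inside the gene bounds given above. Clusters could be counted between these starts. The 30 bases before each start are shown, 5′ to 3′ on the plus strand (RefSeq, GRCh38.p14), to identify the starts.
PRKCZ start at 2050411: ttggccgctggctccacctcggtccgccat
PRKCZ start at 2073664: acatccatgccgtgttttagtttgtgcctc
PRKCZ start at 2074071: gagtcccggcgttgccgctgcctgtgcgct
PRKCZ start at 2104716: aggctgggcctgccctggcgaggggtggtc
Between the first and second starts, 23.3 kb apart, lay 20 WT and 11 F125A clusters, a density of 8.60 and 4.73 per 10 kb. Between the third and the fourth, 30.6 kb apart, lay 23 and 9, or 7.51 and 2.94 per 10 kb. From the fourth start to the gene end, 80.7 kb, there were 23 and 13, or 2.85 and 1.61 per 10 kb. Clusters thus began well upstream of the internal starts in both lists, and no step up in density was seen after the last start.

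DLG1 and SCRIB encode scaffolds of the Scribble module. DLG1 on chromosome 3 (197042560 to 197299321, minus strand, 257 kb) had 216 WT and 97 F125A clusters. All of its 26 windows of 10 kb held WT clusters and 23 held F125A clusters. The window 20 to 30 kb after the start had the most in both lists, 21 and 13. The same promoter annotation gives 5 starts for DLG1, of which 4 lie within 1.19 kb of each other and 1 lies 115 kb downstream. The 30 bases before the outermost and the internal start, 5′ to 3′ on the minus strand (RefSeq, GRCh38.p14), are as follows.
DLG1 start at 197299321: gtttactgggaagagccttccggttttgaa
DLG1 start at 197183872: ctgtaattgtagctgcagtttttaccgatc
Before the internal start lay 121 WT and 52 F125A clusters, and after it 95 and 45. From the fourth start on, this gave 10.6 WT and 4.55 F125A clusters per 10 kb before the internal start and 6.72 and 3.18 after it.

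Of microRNA genes inside the 10 genes, the annotation used here, which may be incomplete, returned only MIR4797, on the same strand within DLG1. Its mature products are shown because a microRNA hairpin is also bound by protein in the nucleus. Capitals mark the seed, bases 2 to 8.
hsa-miR-4797-5p: gACAGAGUgccacuuacugaa
hsa-miR-4797-3p: uCUCAGUAaguggcacucugu
The hairpin (chr3:197293878-197293948) held no cluster, and the nearest WT and F125A clusters of DLG1 lay 822 and 2523 nt away.

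SCRIB, the scaffold that names the module, on chromosome 8 (143790925 to 143815773, minus strand, 24.8 kb) had 30 WT and 26 F125A clusters, 1.15 WT clusters for each F125A cluster, the lowest of the 10 genes. It was the densest of the 10 per length in both lists, with 121 WT and 105 F125A clusters per 100 kb. Genes of similar length had a median of 80.5 WT clusters per 100 kb, and SCRIB was denser than 76.6% of them. The longest distance between neighbouring clusters of SCRIB was 4.15 kb with WT and 4.07 kb with F125A, and it lay at the same place. Of its WT clusters, 22 of 30 (73.3%, exact interval 54.1 to 87.7%) overlapped an F125A cluster, beside 44.7% over all genes. It was the highest share of the 10, but this share is limited by the number of F125A clusters for each WT cluster.

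MAGI1 and MAGI3 encode junction scaffolds of the MAGI family. MAGI1 on chromosome 3 (65353526 to 66038918, minus strand, 685 kb) had 336 WT and 149 F125A clusters, and 195 and 101 of them lay in its first 200 kb, as in its first 30%. A distance of 49.6 kb without an F125A cluster, 443 to 493 kb after the start, contained 15 WT clusters. The longest blocks of touching WT clusters in MAGI1 lay beyond it, 499 to 500.1 kb after the start. The block chr3:65538773-65539133 held 4 WT clusters, and F125A clusters covered 95.8% of it. The block chr3:65539212-65539446 held 3 WT clusters, and F125A clusters covered 97.4% of it. Most clusters of MAGI1 were not in such runs, since 31 of its 336 WT clusters touched another.

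MAGI3 on chromosome 1 (113390515 to 113685923, plus strand, 295 kb) had 254 WT and 123 F125A clusters. Its first 10 kb held the most in both lists, 27 and 19. The first 100 kb, a bound chosen after the profile was seen, held 182 WT clusters (71.7%) and 94 F125A clusters (76.4%). All 30 windows of MAGI3 held a WT cluster and 25 an F125A cluster.

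Relative to the list totals, none of the 10 genes lay 2-fold or more toward either protein. The measure is a log2 ratio: 1 was added to each count, WT was divided by F125A, and the list totals, treated likewise without the addition, gave the value subtracted. It was computed for 5626 genes whose WT and F125A clusters came to at least 20, and all 10 genes were among them. Of these 5626, 2.51% were 2-fold or more higher with WT, 1.99% with F125A and 4.5% in either direction, so 0 of 10 is near the background. Relative to genes of similar length none of the 10 passed 2-fold either, beside 2.06% toward WT, 0.48% toward F125A and 2.54% in all. With 5 added to each count it was again 0 of 10, beside 0.64%, 1.99% and 2.63%. The ratios ran from -0.76 in SCRIB to 0.54 in PARD3B. Their median was 0.16, beside -0.04 for all genes in the calculation. Of the 10, 8 were positive and 2 negative, whereas 46.5% of all genes and 71.6% of genes over 100 kb were positive.

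The interval excluded 0 for 2 genes. PARD3B had 341 WT and 120 F125A clusters, which gave 0.54 on the log2 scale (interval 0.24 to 0.86, from the exact binomial). PARD3 had 698 and 313, a log2 ratio of 0.19 with a lower bound of 5.1e-05 and an upper bound of 0.39. The median of genes of similar length, 0.42 for PARD3 and PARD3B alike, lay above the interval of PARD3 and within that of PARD3B. SCRIB, at -0.76, had an interval of -1.56 to 0.06. The ratios of PARD6G (0.34), MAGI1 (0.21), DLG1 (0.18), PRKCI (0.14), MAGI3 (0.08), PRKCZ (0.02) and PARD6B (-0.23) all had intervals that included 0. The ratio of PARD6G fell to 0.02 with clusters under 50 nt apart merged and to 0.09 with touching clusters joined. The interval of PARD6B, with 22 clusters in all, reached from -1.51 to 1.30. In this order the intervals of all neighbouring genes overlap.

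Longer genes had higher ratios, here as over all genes. Spearman's rho of the ratio with gene length came to 0.71 for the 10 genes and 0.57 for all tested genes, both given as descriptions. Minus the median of genes of similar length, 4 of the 10 were positive and 6 negative, and the median was -0.06. PARD3 moved to -0.23, MAGI1 to -0.22, MAGI3 to -0.23, SCRIB to -0.34 and PARD3B to 0.11. PARD3, MAGI1, MAGI3, DLG1 (-0.02) and PRKCZ (-0.10) thus turned from above 0 to below it, and PARD6B turned the other way, to 0.20.

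**Figure D4:**
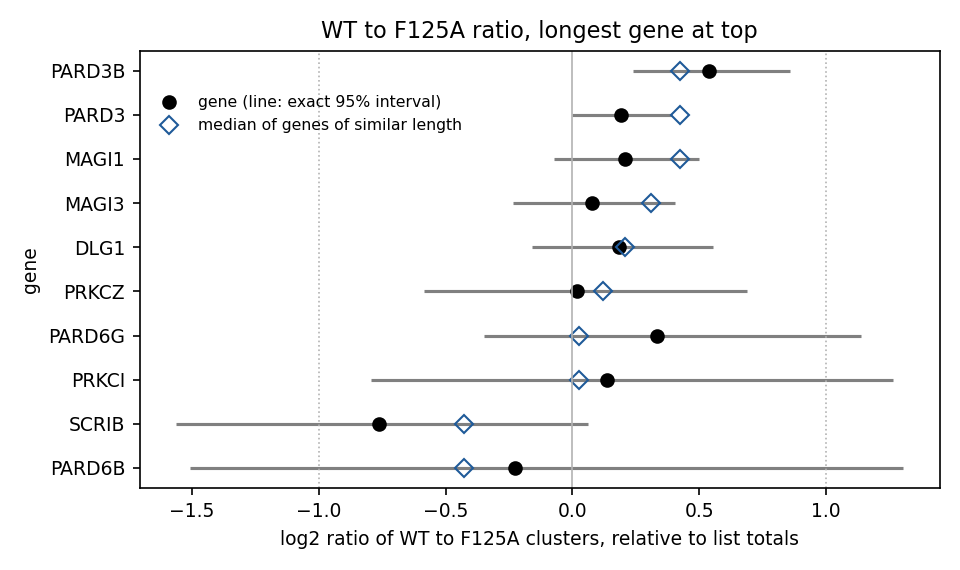
WT over F125A clusters of the 10 genes, as a log2 ratio relative to the list totals, on the x axis, longest at top. Dots give the gene, lines the exact 95% interval for counting error, open diamonds the median of genes of similar length, and dotted lines mark 2-fold. Dots and diamonds both tend to rise with gene length, the dots from SCRIB at -0.76 to PARD3B at 0.54. The diamond of PARD3, at 0.42, lies above the whole line of that gene.

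The first part of the gene held a larger share of clusters than it did over all genes. Of the members' WT clusters, 57.2% (exact interval 55.1 to 59.4%) lay in the first 30% of the gene, beside 38.2% for all genes and 39.8% for genes over 100 kb. Without PARD3 the share was 57.9%. Genes differed widely around these figures. PARD3B had 76.8% of its WT clusters there, more than 94.3% of genes of similar length, PARD6B 64.3% (more than 92.2%), MAGI3 63.8% (90.4%) and PRKCZ 54.5% (90.4%). PARD3 with 56.0% and MAGI1 with 58.0% stood above 69.4% and 72.6% of genes of their length. The median gene in the length bin of PARD3, PARD3B and MAGI1 had 44.4%, more than the figure for genes over 100 kb. PARD6G was the exception, with 1 of 58 WT clusters in the first 30% (1.72%), more than in 2.49% of genes of similar length. PRKCI (34.5%), SCRIB (40.0%) and DLG1 (42.1%) stood nearer the middle, above 44.1%, 60.1% and 61.6% of theirs.

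The share in the first 30% was larger in the F125A list than in the WT list for 9 of the 10 genes and equal in PRKCZ, beside 51.7% of all tested genes and 54.5% of those over 100 kb. The 9 include PARD6G, with 1 cluster there in each list, and DLG1, where the shares differed by 0.14 percentage points. For PARD3 it was 64.5% (exact interval 59.0 to 69.8%) with F125A and 56.0% (52.2 to 59.7%) with WT. For MAGI1 it was 67.8% (59.6 to 75.2%) and 58.0% (52.6 to 63.4%), and for MAGI3 71.5% (62.7 to 79.3%) and 63.8% (57.5 to 69.7%). In these genes the intervals of the 2 lists overlapped. Summed over all 10 genes they did not, but these intervals treat clusters as independent and are no test between the proteins. The first 30% held 63.4% of F125A clusters (60.2 to 66.6%), against 57.2% of WT clusters (55.1 to 59.4%). Leaving out PARD3 gave 62.8% (58.8 to 66.7%) against 57.9% (55.2 to 60.5%), and these intervals overlapped. Over all genes the shift had the same direction but was smaller, 39.7% against 38.2%. In counts, PARD3 had 391 WT and 202 F125A clusters in its first 30% and 307 and 111 in the remainder, or 1.94 and 2.77 WT clusters for each F125A cluster. In MAGI1, 141 WT and 48 F125A clusters lay in the remainder, beyond the 195 and 101 given above for its first part. The log2 ratio of the remainder, not corrected for length, had an interval above 0 in PARD3 (0.50, 0.19 to 0.83) and MAGI1 (0.57, 0.11 to 1.10). PARD3B had such an interval in the remainder (0.90, 0.24 to 1.72) and in its first 30% (0.43, 0.10 to 0.79). The median of whole genes of similar length to these, 0.42, lay within each of these intervals. In every other member the interval of the remainder included 0. In DLG1 the shares were nearly equal, at 42.1% of WT clusters and 42.3% of F125A clusters (interval 32.3 to 52.7%).

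**Figure D5:**
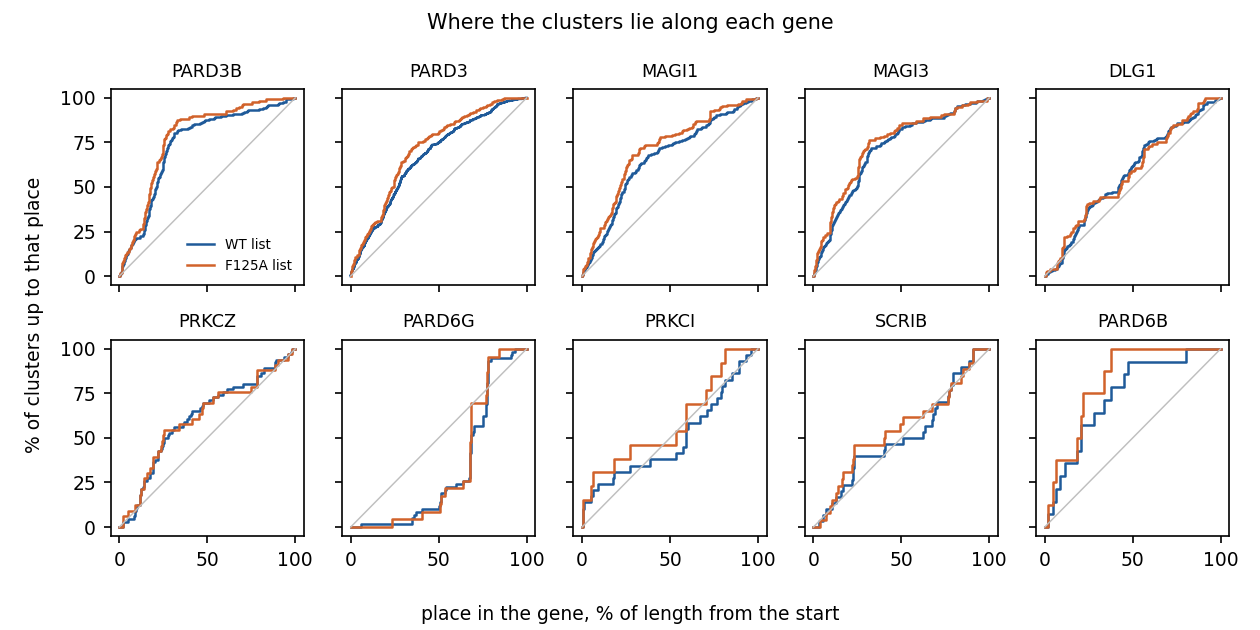
Cumulative share of clusters against place in the gene, in percent of gene length from the start, for each of the 10 genes in the WT and F125A lists. The grey diagonal is an even spread. Curves of PARD3B, PARD3, MAGI1 and MAGI3 rise early, and at 30% of gene length the F125A curve lies above the WT curve in each of the 4, whereas PARD6G rises after 60% of its length.

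Most F125A clusters of these genes overlapped a WT cluster. The number was 808 of 905 (89.3%, exact interval 87.1 to 91.2%), beside 85.3% for all clusters with a single gene and 87.7% in genes over 100 kb. By gene it ranged from 80.8% in SCRIB (21 of 26) to 92.3% in PRKCI (12 of 13), and in PARD3 it was 91.7% (287 of 313). In the other direction, 843 of 2042 WT clusters (41.3%, 39.1 to 43.5%) overlapped an F125A cluster, beside 44.7% for all and 41.4% in genes over 100 kb. PARD3B had the lowest share, 32.0% (27.0 to 37.2%), and SCRIB the highest. These genes also had the most and the fewest WT clusters for each F125A cluster, 2.84 and 1.15. Of the 97 F125A clusters without a WT partner, 26 lay in PARD3, 19 in MAGI1 and 15 in PARD3B.

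Whether a WT cluster had an F125A partner went with its length and its surroundings. Of the members' WT clusters under 50 nt, 30.5% (26.8 to 34.4%) had a partner, of those of 50 to 79 nt 42.9% (39.9 to 46.1%) and of those of 80 nt or more 51.3% (46.6 to 56.0%). With another WT cluster under 500 nt away the share was 44.7%, otherwise 34.5%. It was 46.4% in the first 30% of the genes and 34.5% in the remainder, and for PARD3 alone 50.4% (45.3 to 55.4%) and 33.2% (28.0 to 38.8%). The same directions held over all genes, at 36.4%, 45.4% and 54.3% by length, 49.4% and 36.9% by neighbour and 47.6% and 42.9% by place. These shares are limited by the number of F125A clusters for each WT cluster. In PARD3 there were 1.94 WT clusters for each F125A cluster in the first 30% and 2.77 in the remainder. A longer cluster also meets an overlap of 1 nt more easily. How far this accounts for the splits was not tested.

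A WT and an F125A cluster that overlapped only each other could be compared in length. There were 703 such pairs in the 10 genes, 249 of them in PARD3, with a median shared length of 55 nt. The F125A cluster was longer in 289, shorter in 378 and of equal length in 36, so the differences went both ways and their signed median, -1 nt here and over all genes, says little of size. Without the sign the median difference was 9 nt, beside 9 nt over all genes, and the largest was 114 nt, in PARD3B. Both edges were identical in 21 pairs (2.99%, beside 2.75% over all genes), the 5′ edge in 112 (15.9%, beside 15.3%) and the 3′ edge in 113 (16.1%, beside 16.3%). Median lengths over all clusters were 60 nt with WT and 63 nt with F125A for the 10 genes, beside 60 nt and 64 nt over all genes, so the longer F125A median is common to the lists. An F125A cluster reached over at least 2 WT clusters in 69 cases (7.62%, beside 6.67% over all genes), and a WT cluster over at least 2 F125A clusters in 35 (1.71%, beside 2.20%).

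Other genes of the polarity pathway were listed by role. Their counts reached at most 278 WT and 159 F125A clusters, in AFDN, fewer than the 698 and 313 of PARD3. Of 53, 47 had a cluster and 33 had at least 20. The log2 ratio was positive in 20 and negative in 13, and its median was 0.15. A single gene, DLG2, a paralogue of DLG1, lay 2-fold or more toward WT, with 49 WT and 10 F125A clusters (1.22, interval 0.33 to 2.48), beside 2.51% of all tested genes, and none lay as far toward F125A. DLG2 spans 2173 kb, and relative to genes of similar length it lay at 0.80.

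Among partners and kinases of the PAR complex, 4 of 10 tested genes lay above 0 and 6 below. MARK3, a PAR1 kinase, had 135 WT and 73 F125A clusters (-0.08) and MARK1 103 and 47 (0.15). PARD6A, the third PAR6 gene and 1.82 kb long, had no cluster in either list. All 5 tested genes of the Crumbs complex, an apical partner of the PAR complex, lay above 0, and 4 of them stayed above it after the correction for length. For each of the 5 the interval included 0, and 4 of the 5 genes are over 100 kb, a class in which 71.6% of genes lay above 0. They included PATJ with 122 and 48 (0.37) and MPP7 with 83 and 28 (0.57). In the Scribble module and its relatives, 5 of 8 lay above 0, and ERBIN had 218 and 116 (-0.06) and DLG5 93 and 44 (0.10). Of 4 tested junction scaffolds 3 lay above 0, with AFDN, the afadin gene, at 278 and 159 (-0.16) and TJP1, which encodes ZO-1, at 93 and 46 (0.04). Among planar polarity genes 3 of 6 lay above 0, with CELSR1 at 83 and 58 (-0.45) and PRICKLE1 at 91 and 41 (0.17).

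The genes with WT and F125A counts closest to those of PARD3, by the summed absolute difference in log2 of count + 1 over the 2 lists, were MECOM (697 and 321), WWOX (710 and 299), FHIT (710 and 341), SDK1 (706 and 357) and IMMP2L (684 and 367). Per length, MECOM had 120 WT clusters per 100 kb, PARD3 98.9 and the other 4 between 47.2 and 76.0. All 5 listed genes known from HEK293 cells had a cluster in at least 1 list, with 217 WT and 143 F125A clusters in all. Most lay in CDH2 and IRS4, whereas VIM had 5 and 4 and NES only 1 F125A cluster. Of 5 genes that mark polarised epithelium 1 had a cluster, CDH1 with 1 WT cluster, and EPCAM, KRT8, KRT18 and CLDN4 had none. Counts followed gene length and only introns were listed, so a short gene can lack clusters even where it is transcribed. Of the neuronal genes, SYT1 had 67 and 15 and RBFOX3 20 and 9. The liver genes ALB and APOB had none, and the blood and muscle genes together had 2 WT and 1 F125A clusters.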

How the data were processed

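Per the labels' protocols, RNA from the purified complexes was ligated to a linker and reverse transcribed with primers carrying identifiers of 4 nt, and inserts of 20 to 80 nt were selected. Per the submitters' processing notes, cutadapt, STAR and hg38 were used. How clusters were called, with which threshold and with what use of the control library, is not given in the sources used here. Each deposited row holds chromosome, start, end, gene, region and strand, per the file headers. Starts were read as 0-based. Per the labels, all libraries of a group point to 1 list, with 373458 WT and 192878 F125A rows. Repeated rows were dropped, none in the 10 genes. Lengths, bounds and sequences come from RefSeq (GRCh38.p14). The genome sequence was not used here, so the pentamer bound by Rbfox was not examined within clusters.

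Counts, log2 ratios and overlaps (same strand, at least 1 nt) were computed in Python 3.11.15 with pandas 2.3.3 and SciPy 1.17.1. Shares carry exact Clopper-Pearson 95% intervals, and intervals of the ratio lack the added 1. Gene length was matched in 20 bins of tested genes. The calculations were tested on simulated data. The members, lists and tests were chosen with earlier results of these data known. The rule for named genes took all 10 members, in each group of other polarity genes the 2 with most clusters and any 2-fold or more, and the 5 genes closest to PARD3. Other names were chosen after their values were seen.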

Additional observations from a re-analysis of the deposited data

How the results depend on the processing

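No paired analysis was possible because each group is deposited as 1 pooled list, and no library could be left out for the same reason. Taken as a sum over the 10 genes, the log2 ratio was 0.21 (interval 0.10 to 0.33), and it lay between 0.19 and 0.25 with 5 in place of 1 added, a minimum of 10 clusters, centring on the median gene, merging under 50 nt, repeats kept, an unbroken run of rows found alike in either list left out or touching clusters joined (added after seeing the data). Relative to genes of similar length it fell below 0, to -0.13. No gene of the 10 lay 2-fold or more under any of these. With 5 added, PRKCI (-0.05) and PRKCZ (-0.06) fell below 0, so that 6 in place of 8 of the 10 lay above it. Of the other polarity genes, 0 in place of 1 lay 2-fold or more with 5 added or relative to genes of similar length. With edges matched within 5 nt, 56.5% of pairs shared the 5′ edge and 61.3% the 3′ edge. With windows of 20 kb the PARD3 window with most WT clusters began at 0 in place of 30 kb. Merging clusters under 50 nt apart left 24 WT and 12 F125A clusters in PARD6G, and joining touching ones left 34 WT clusters, which took its log2 ratio from 0.34 to 0.02 and 0.09. Sharing over at least 0.5 of the cluster gave 87.2% of F125A and 39.4% of WT clusters a partner, and merging gave 89.4% and 41.1%. In the first 20% of the genes, also chosen after seeing the data, lay 37.5% of WT and 43.3% of F125A clusters. The alternative on sequence flanks was not run, because the genome sequence was not used here. Unknown read depth limits every absence of a cluster.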
